A study of Mus musculus with 172 samples.

Results

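The 5 genes described here, *Slc5a3*, *Isyna1*, *Impa1*, *Impa2* and *Nfat5*, take up, make and recycle myo-inositol or, in the case of *Nfat5*, encode the factor that drives the uptake gene under osmotic stress. They were chosen by name, and all 5 were listed among the 14896 genes measured in cerebral cortex and the 14107 measured in liver. The samples came from young adult male mice of 33 BXD/RwwJ recombinant inbred lines, the parental strains C57BL/6J and DBA/2J, each as 2 pools, and the 2 reciprocal F1 hybrids, BD and DB. BXD lines carry mosaics of the C57BL/6J and DBA/2J genomes. Mice were either kept awake by gentle handling for the first 6 h of the light phase (SD) or left undisturbed (Ctr), and both groups were killed 6 h after light onset. RNA of several mice of a line and condition was pooled into 1 library per tissue, so that 39 Ctr and 39 SD pools stood behind each tissue and the spread between mice of a line was not measured. Fewer mice were available for BXD79, BXD85 and BXD101, and some of their libraries may hold a single mouse. The *Slc5a3* rise without these lines was 0.93 in cortex and 1.52 in liver. The libraries of 4 BXD/TyJ lines are given apart. Different mice made up the Ctr and the SD pool of a line, and the level of a pool is given as log2 CPM, the logarithm to base 2 of reads scaled to the library total.

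Myo-inositol is a small sugar alcohol. Cells use it in 2 ways, as the head group of phosphatidylinositol lipids, from which phospholipase C releases inositol trisphosphate as a second messenger, and as an organic osmolyte that is gathered when the surroundings become hypertonic. SLC5A3 carries it into the cell together with sodium. ISYNA1 makes its precursor, inositol 3-phosphate, from glucose 6-phosphate, and the monophosphatases IMPA1 and IMPA2, which lithium inhibits, remove the phosphate both from this precursor and from breakdown products of the messenger. NFAT5, also called TonEBP, is a transcription factor activated by hypertonicity, and *Slc5a3* is among its known targets. The brain holds myo-inositol at high concentration, with astrocytes as a main store.

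In the mm9 assembly, *Slc5a3* lies on chromosome 16 from 92058567 to 92087718 on the plus strand, with 10913 exonic bases in the GENCODE annotation. *Isyna1* lies on chromosome 8 from 73118380 to 73121187 with 1836 exonic bases, and *Nfat5* on the same chromosome from 109817370 to 109903417 with 18378. *Impa1* lies on the minus strand of chromosome 3 from 10313540 to 10331439 with 3455 exonic bases. *Slc5a3* lies within the span of *Mrps6*, which encodes a protein of the small mitochondrial ribosome subunit. Both genes are read from the same strand, and 696 exonic bases are shared, 6.38% of those of *Slc5a3* and 43.77% of those of *Mrps6*. The authors' counting leaves out a read that falls in both genes, and their RefSeq models were not used here, so *Mrps6* is reported beside *Slc5a3* and the division of reads between them is uncertain.

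The start sites of *Slc5a3* and *Mrps6* in RefSeq (GRCm38.p6) are 14 bases apart, so a single stretch of sequence serves as the promoter of both. It is shown because the response of *Slc5a3* was the largest of the 5 genes and because the neighbour changed as well. The stretch matched mm9 at chr16:92058317-92058581 on the plus strand. It runs from 250 bases before the *Slc5a3* start to the first base of *Mrps6* in RefSeq, and capitals mark the 15 bases from the *Slc5a3* start to that base. In the GENCODE annotation used for the positions above, *Mrps6* starts at 92058515 instead, upstream of the *Slc5a3* start at 92058567.
Slc5a3 and Mrps6 promoter: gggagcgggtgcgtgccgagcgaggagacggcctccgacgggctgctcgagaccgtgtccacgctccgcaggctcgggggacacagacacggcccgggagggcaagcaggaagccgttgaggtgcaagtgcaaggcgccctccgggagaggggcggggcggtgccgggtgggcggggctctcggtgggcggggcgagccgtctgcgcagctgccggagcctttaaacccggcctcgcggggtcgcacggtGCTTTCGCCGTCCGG
Of its bases, 74.7% were G or C. The 6-letter core of the tonicity element through which NFAT5 binds, TGGAAA, was searched on both strands in promoters of 300 bases, 250 before the start and 50 after it. It was found in 0 of the 3 promoters of *Slc5a3*, *Isyna1* and *Nfat5*, and 21.4% of the 32851 promoters searched held it. The 3 promoters held 66.0% to 73.3% G or C, against a median of 52.7% over all promoters. The 21.4% is thus not a share over promoters of like composition. The absence says only that these letters are not in this window.

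Cortex libraries held between 18995492 and 28998853 counted reads in Ctr (median 22170272) and between 19025159 and 28685060 in SD (median 22713295). Liver libraries were shallower, with 5034166 to 8269401 reads in Ctr (median 6752508) and 4681101 to 8009362 in SD (median 6563242). The reads on 1 member ranged from 61 per library for *Impa2* in cortex to 5448 for *Nfat5* in cortex, and in liver from 31 for *Impa2* to 1292 for *Impa1*, so the liver values of *Impa2*, *Isyna1* and *Slc5a3*, with 71.7, 125 and 242 reads on average, carried more counting error than those in cortex. In liver the reads on some members also grew faster than the library total. The slope of log reads on log total was 2.83 (SE 0.21) for *Nfat5*, 1.76 (SE 0.23) for *Slc5a3* and 1.66 (SE 0.26) for *Isyna1*. For *Impa1* it was 0.95 (SE 0.052) and for *Impa2* 0.88 (SE 0.33), and in cortex slopes ran from 0.80 to 1.18. Liver log2 CPM of *Nfat5*, *Slc5a3* and *Isyna1* thus rose with the library total. What this adds to their relations and order of levels was not tested. All 5 neuronal markers were listed in cortex and all 5 hepatocyte markers in liver, at summed levels of 7460 to 8720 CPM and 2050 to 3480 CPM. *Alb*, the albumin gene, had the highest read density in liver, 1.78 reads per exonic base, against 0.293 for *Impa1* and 0.0222 to 0.0679 for the other members. A few libraries stood apart in a way that touches the members. The level of long transcripts was taken as the median of genes of at least 8000 exonic bases minus that of genes under 2000. Genes with a mean of at least 1 log2 CPM entered, each centred on its mean within Ctr or within SD. This level was -1.38 in the SD liver pool of BXD70 (median of the SD liver pools 0.02). It was -0.63 in the Ctr cortex pool of BXD90 (median of the Ctr cortex pools 0.04). The Ctr cortex pool of BXD56 had the highest *Slc5a3* level of its group. Results are given with and without these lines where they rest on them.

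*Slc5a3*, the transporter, rose after SD in both tissues and in all 39 pools of each. In cortex the Ctr pools lay between 4.75 and 5.95 log2 CPM (median 5.04) and the SD pools between 5.44 and 6.45 (median 5.97). Of the SD pools, 20 of 39 lay above the highest Ctr pool, which was BXD56. The groups overlapped only through this pool, since the next highest Ctr pool reached 5.42. The mean rose from 5.07 ± 0.20 to 5.99 ± 0.20 (SD, n = 39), a log2 fold change of 0.93 (SE 0.044), or 1.9-fold, with an adjusted p = 4.3e-32 in limma over all genes listed. In cortex 33.0% of the genes listed were higher and 35.4% lower at an adjusted p under 0.05, so that a call in itself set no gene apart. By size, the rise of *Slc5a3* was the 138th of 14896.

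In liver the transporter rose further. Ctr pools lay between 3.44 and 4.63 log2 CPM (median 4.18) and SD pools between 4.73 and 6.25 (median 5.78), and the groups did not overlap in any of the 39 pools. The mean rose from 4.18 ± 0.28 to 5.71 ± 0.36 (SD, n = 39). The log2 fold change was 1.53 (SE 0.071), or 2.89-fold, with limma's adjusted p = 1.2e-31. In liver 21.5% of genes were called higher and 22.6% lower, and *Slc5a3* had the 19th largest rise of 14107 genes. The smallest rise was that of BXD45 in liver (0.56) and of BXD56 in cortex (0.19), and the largest were those of the BD hybrid in liver (2.27) and of the second DBA/2J pool in cortex (1.38). Without BXD56, BXD70 and BXD90, left out after the data were seen, the log2 fold changes were 0.94 in cortex and 1.57 in liver.

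*Mrps6* rose less, by 0.27 in cortex (SE 0.033, limma adjusted p = 2.9e-11) and by 0.25 in liver (SE 0.034, limma adjusted p = 2.1e-09), and was higher in 37 and 34 of 39 pools. In the Ctr cortex pool of BXD56, *Mrps6* was at 4.45 log2 CPM, the highest of 39 as well (the next highest was 4.23).

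**Figure D1:**
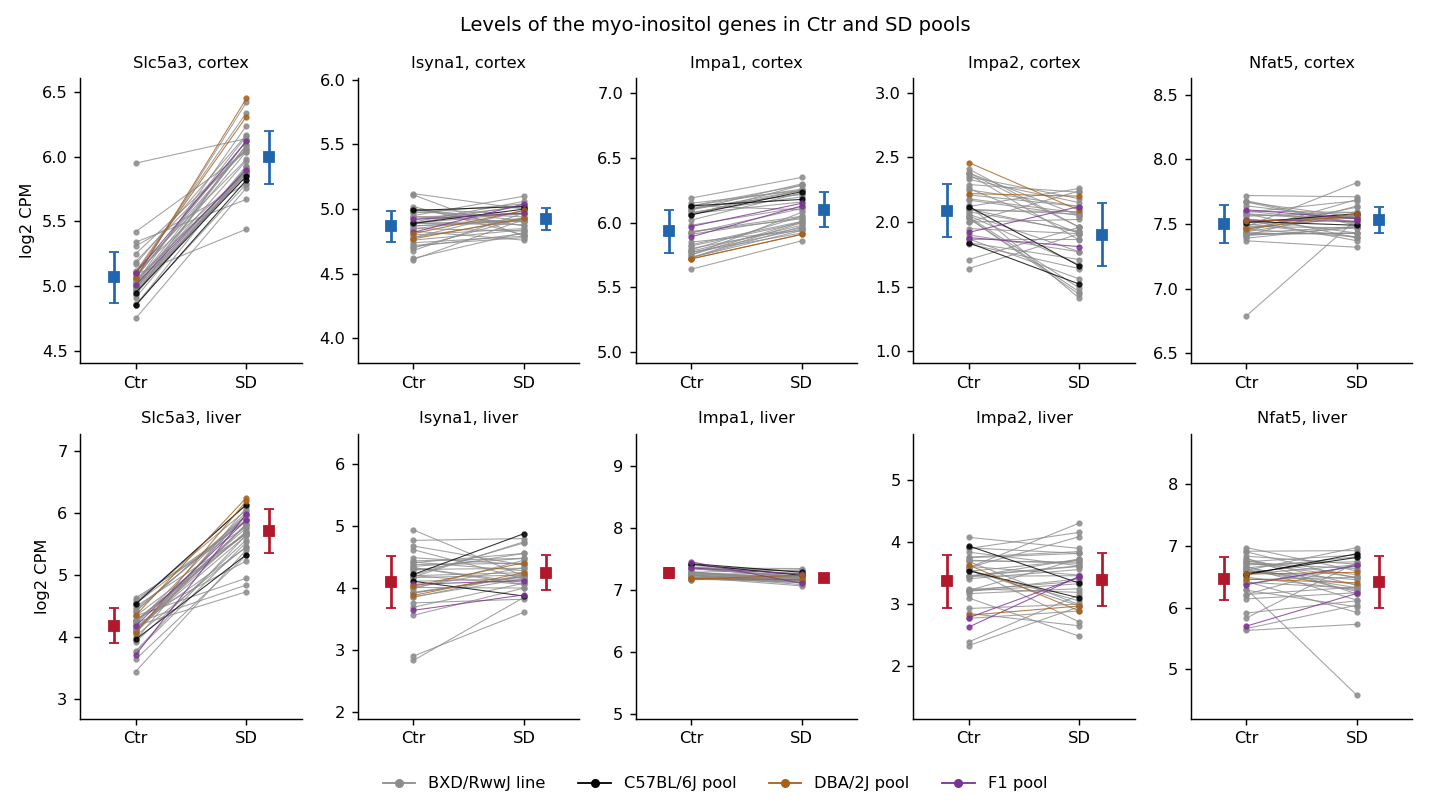
Level of each member in log2 CPM (vertical axis, each row of panels with 1 width of scale) in the Ctr and SD pools of cortex (upper row) and liver (lower row). Each line joins the 2 pools of a line or strain, coloured by panel, and squares with bars give the mean ± SD of 39 pools; *Slc5a3* rose in all 39 pools of both tissues, while *Nfat5* shows no common direction, with BXD90 in cortex Ctr (6.79) and BXD70 in liver SD (4.58) far below the rest.

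*Isyna1*, the synthase, changed little. In cortex it lay between 4.61 and 5.12 log2 CPM in Ctr (median 4.89) and between 4.76 and 5.10 in SD (median 4.93), and the SD range lay within that of Ctr. The log2 fold change was 0.057 (SE 0.024, 1.04-fold), with limma's adjusted p = 0.03, and 28 of 39 pools were higher in SD. In the 33 BXD/RwwJ lines alone it was 0.045, with limma's adjusted p = 0.139. In liver Ctr pools spread from 2.83 to 4.94 (median 4.17) and SD pools from 3.61 to 4.88 (median 4.21). The log2 difference was 0.15 (SE 0.08), with limma's adjusted p = 0.128 and 29 of 39 pools higher. With lines entered as a replicate block, this difference had limma's adjusted p = 0.0172, with voom weights and the block it was 0.0646, and over the other alternatives it reached 0.258.

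*Impa1*, the monophosphatase with the higher level of the pair in both tissues, moved in opposite directions. In cortex it rose from 5.93 ± 0.16 to 6.10 ± 0.13 log2 CPM (SD, n = 39), with Ctr pools from 5.64 to 6.19 (median 5.93) and SD pools from 5.86 to 6.35 (median 6.10). The ranges overlapped broadly, but within a line the shift was regular. It was positive in 38 of 39 pools, BXD89 (-0.038) being the exception, with an SD of 0.068 around a mean of 0.17. The log2 fold change of 0.17 (SE 0.033, 1.12-fold) had limma's adjusted p = 6.8e-06, and 1.5e-17 with lines as a replicate block. In liver *Impa1* fell from 7.28 ± 0.08 to 7.20 ± 0.067 (SD, n = 39). Ctr pools lay between 7.17 and 7.46 (median 7.26) and SD pools between 7.07 and 7.35 (median 7.19), with 16 of 39 SD pools under the lowest Ctr pool. The log2 fold change was -0.081 (SE 0.017, 0.946-fold), with limma's adjusted p = 7.2e-05, and 33 of 39 pools were lower.

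*Impa2*, the second monophosphatase (mm9 chromosome 18 from 67448907 to 67478800, 1661 exonic bases), fell in cortex. Ctr pools lay between 1.64 and 2.46 log2 CPM (median 2.09) and SD pools between 1.41 and 2.26 (median 1.93). 7 of 39 SD pools lay under the lowest Ctr pool. The log2 fold change was -0.19 (SE 0.051, 0.878-fold), with limma's adjusted p = 7.8e-04, and 32 of 39 pools were lower. *Impa2* had the fewest reads of the members, 91.8 per cortex library on average. In liver it spread from 2.33 to 4.08 in Ctr (median 3.46) and from 2.48 to 4.31 in SD (median 3.44), and the difference of 0.022 (SE 0.096) did not pass the test (limma adjusted p = 0.876).

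*Nfat5*, the tonicity factor, did not pass the test in either tissue. In cortex Ctr pools lay between 6.79 and 7.72 log2 CPM (median 7.51) and SD pools between 7.32 and 7.82 (median 7.54), with 20 pools higher and 19 lower in SD. The difference was 0.027 (SE 0.028, limma adjusted p = 0.404). In liver Ctr pools lay between 5.63 and 6.97 (median 6.54) and SD pools between 4.58 and 6.97 (median 6.47), again with 20 pools higher and 19 lower, and a difference of -0.05 (SE 0.085, limma adjusted p = 0.672). The lowest cortex value, in Ctr, was that of BXD90 and the lowest liver value, in SD, that of BXD70, the libraries with few long transcripts. Without BXD56, BXD70 and BXD90 the differences were 0.0012 in cortex and 0.0043 in liver. With the long-transcript level as a term of the fit, added after the data were seen, the cortex difference was 0.038 with limma's adjusted p = 0.0448.

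Counted over the 5 genes, 3 rose, 1 fell and 1 did not pass the test in cortex, with a median log2 change of 0.057 against -0.0097 over all genes, of which 68.4% passed in either direction. In liver 1 rose, 1 fell and 3 did not pass, with a median of 0.022 against -0.0015 over all genes, of which 44.2% passed. The number of members called was thus near the share over all genes in both tissues. In whole tissue, fewer cells of a type and less RNA per cell cannot be told apart. In cortex 1 of 5 astrocyte markers was higher and none was lower, whereas with lines as a replicate block 4 of 5 were higher (*Aldh1l1*, *Slc1a2*, *Gja1* and *Gfap*, limma adjusted p = 1.6e-09, 0.00577, 0.0197 and 0.0314), by 0.043 to 0.13 on the log2 scale, and their summed level ran from 3660 to 6160 CPM in Ctr and from 4290 to 6390 CPM in SD. Over all genes, 11359 of 14896 passed in cortex with the block, against 10191 without it, so 4 of 5 is near that share. 3 of 5 neuronal markers were lower, with sums of 7670 to 8720 CPM in Ctr and 7460 to 8380 CPM in SD. 2 of 5 brain endothelium markers were higher and 3 lower. The block left the neuronal and brain endothelium counts as they were. In liver 0 of 5 hepatocyte markers passed the test, with changes of 0.012 to 0.024. The highest read density was 1.78 reads per exonic base in liver and 43.5 in cortex, so counts of abundant liver transcripts may be limited. Whether the hepatocyte markers could show a change was not tested. All 5 B cell markers fell, at summed levels of 5.88 to 26.1 CPM in Ctr and 1.86 to 13.1 CPM in SD, and 3 of 5 markers of liver endothelium rose. The part of these cell types in the changes of the members was not tested.

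The response differed between the tissues for 3 of the 5 genes. The change of each pool in liver minus that in cortex was tested with limma over 12695 genes, 57.6% of which passed. The rise of *Slc5a3* was larger in liver by 0.60 (SE 0.054, limma adjusted p = 7e-13), and 37 of 39 pools had the larger rise there. *Impa1* differed by -0.25 (SE 0.02, limma adjusted p = 2.8e-14), with 38 of 39 pools lower in liver than in cortex. *Impa2* differed by 0.21 (SE 0.072, limma adjusted p = 0.0114), with 25 of 39 pools in that direction, and without the pairing of tissues by line (no replicate block) its adjusted p was 0.106. For *Isyna1* the difference was 0.091 (SE 0.054, limma adjusted p = 0.15) and for *Nfat5* -0.076 (SE 0.072, limma adjusted p = 0.376). *Mrps6* rose by nearly the same amount in both tissues, with a difference of -0.017 (SE 0.045, limma adjusted p = 0.768).

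**Figure D2:**
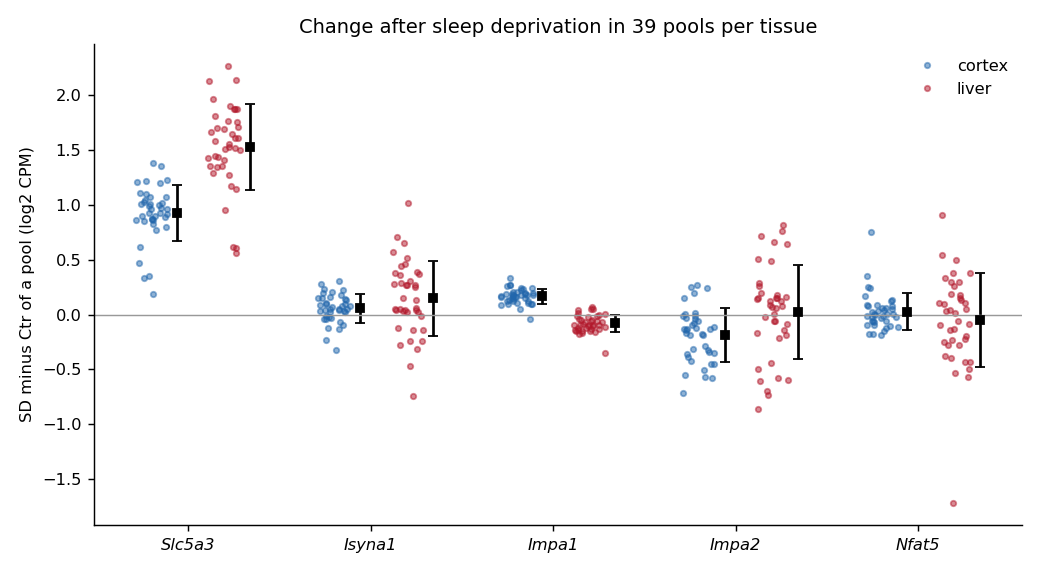
SD minus Ctr in log2 CPM (vertical axis) of each of 39 pools for the 5 members in cortex (blue) and liver (red); black squares with bars give the mean ± SD. *Slc5a3* sits at 0.93 in cortex and 1.53 in liver, *Impa1* lies above 0 in 38 of 39 pools in cortex and below 0 in 33 of 39 in liver, and the other 3 genes scatter around 0 in liver.

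Levels of different genes were compared per kilobase of exon, within the Ctr pools of a tissue. In cortex the order was *Impa1* (4.14 ± 0.16 log2 CPM per kilobase), *Isyna1* (3.99 ± 0.12), *Nfat5* (3.30 ± 0.15), *Slc5a3* (1.62 ± 0.20) and *Impa2* (1.34 ± 0.20; SD, n = 39). *Impa1* and *Isyna1* differed by 0.15 with an SD of 0.21 (*Impa1* higher in 29 of 39 pools), and *Slc5a3* and *Impa2* by 0.28 with an SD of 0.31 (*Slc5a3* higher in 34 of 39), so that the mean difference was smaller than its SD for these neighbours, whereas *Isyna1* exceeded *Nfat5* and *Nfat5* exceeded *Slc5a3* in all 39 pools. In liver *Impa1* stood alone at the top (5.49 ± 0.08), followed by *Isyna1* (3.21 ± 0.43), *Impa2* (2.62 ± 0.43), *Nfat5* (2.26 ± 0.34) and *Slc5a3* (0.72 ± 0.28). There the step from *Impa2* to *Nfat5* (0.36, SD 0.59) lay within the spread, with *Impa2* higher in 27 of 39 pools, and that from *Isyna1* to *Impa2* (0.59, SD 0.55) only just exceeded it, with *Isyna1* higher in 34. The tissues were normalized apart, so levels were not tested across them. The GENCODE lengths stand in for those of the transcripts used in each tissue.

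To ask whether the level of a member recurs in other mice of a line, the Ctr and SD levels of the 33 BXD/RwwJ lines were related. This was a family of 10 relations with two-sided permutation tests. Per the paper's methods, SD and Ctr mice were paired inside an experimental cohort. A level shared through the line and one shared through the cohort therefore cannot be told apart. *Impa1* in cortex recurred most closely, with Pearson's r = 0.91 (permutation p = 1e-05, the smallest that 100000 resamples can give, adjusted p = 1e-04), Spearman's rho = 0.86 (p = 1e-05, adjusted p = 1e-04) and r = 0.89 without BXD48 and BXD79. The Ctr levels of the lines spread without a break, the widest gap between neighbours being 0.09. In liver r was 0.54 for *Impa1* (permutation p = 0.00108, adjusted p = 0.0027; rho = 0.48, p = 0.00563, adjusted p = 0.0141; r = 0.46 without BXD50 and BXD100). *Isyna1* recurred in liver (r = 0.64, permutation p = 1e-04, adjusted p = 5e-04; rho = 0.58, p = 5.9e-04, adjusted p = 0.00197; r = 0.46 without 65a (97) and BXD55) and not detectably in cortex (r = 0.26, permutation p = 0.152, adjusted p = 0.19; rho = 0.25, p = 0.162, adjusted p = 0.192; r = 0.23 without 73b (103) and BXD51). For *Impa2* r was 0.60 in liver (permutation p = 1.5e-04, adjusted p = 5e-04; rho = 0.67, p = 5e-05, adjusted p = 2.5e-04; r = 0.63 without BXD81 and BXD64) and 0.38 in cortex (permutation p = 0.0284, adjusted p = 0.0473; rho = 0.45, p = 0.00877, adjusted p = 0.0175; r = 0.48 without BXD71 and BXD56).

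The level of *Slc5a3* did not detectably recur. Its r was 0.16 in cortex (permutation p = 0.355, adjusted p = 0.394; rho = 0.24, p = 0.184, adjusted p = 0.192), or 0.053 without BXD56 and 73b (103), and 0.29 in liver (permutation p = 0.105, adjusted p = 0.15; rho = 0.33, p = 0.0644, adjusted p = 0.092), or 0.20 without BXD51 and BXD67. For *Nfat5* it was 0.11 in cortex (permutation p = 0.519, adjusted p = 0.519; rho = 0.23, p = 0.192, adjusted p = 0.192; r = 0.13 without BXD90 and BXD50) and 0.40 in liver (permutation p = 0.0249, adjusted p = 0.0473; rho = 0.44, p = 0.0116, adjusted p = 0.0193; r = 0.29 without BXD50 and BXD67). BXD50 had a low long-transcript level in both of its liver pools, -0.359 in Ctr and -0.546 in SD. Its part in the *Nfat5* value was not tested. No test of a difference between these correlations was run. The lines named 48a (96), 65a (97) and 73b (103) are related to BXD48, BXD65 and BXD73, so the 33 lines are not fully independent.

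**Figure D3:**
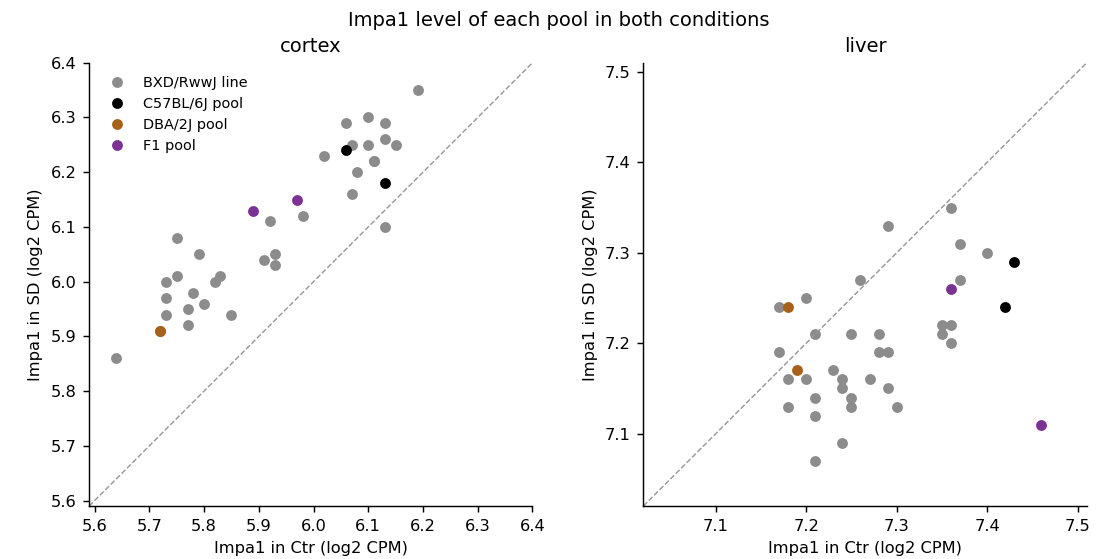
*Impa1* level in SD (vertical axis) against its level in Ctr (horizontal axis), both in log2 CPM, in cortex (left) and liver (right), with the dashed line marking equal levels. In cortex the 33 BXD/RwwJ lines follow a line parallel to the diagonal (r = 0.91), with the DBA/2J pools near the low end and the C57BL/6J pools near the high end, and 38 of 39 pools lie above the diagonal; in liver 33 of 39 lie below it.

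The parental strains were compared over 8 libraries per tissue, 2 pools per strain and condition, with the condition as a covariate. Per the paper's methods, parental mice were phenotyped once early and once late in the data collection. The first and second pool of a strain thus also differ in time, and pool and time cannot be told apart. Of all genes, 25.5% differed in cortex and 17.9% in liver. *Impa1* was higher in C57BL/6J cortex. Its Ctr pools stood at 6.13 and 6.06 log2 CPM against 5.72 and 5.72 in DBA/2J, and the SD pools at 6.18 and 6.24 against 5.91 and 5.91, without overlap in either condition. The difference was 0.34 (SE 0.041, limma adjusted p = 2.1e-05). The F1 pools lay between the strains in Ctr, at 5.89 (BD) and 5.97 (DB). In liver the Ctr pools differed in the same direction (7.43 and 7.42 against 7.18 and 7.19), while the SD pools did not separate to that extent (7.29 and 7.24 against 7.24 and 7.17), and over both conditions the difference of 0.15 did not pass (SE 0.057, limma adjusted p = 0.0959), while in the Ctr libraries alone it was 0.24 (limma adjusted p = 0.0283).

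*Slc5a3* was lower in C57BL/6J cortex, with a difference of -0.36 (SE 0.066, limma adjusted p = 8.1e-04). Its Ctr pools were at 4.85 and 4.95 log2 CPM in C57BL/6J and at 5.10 and 5.06 in DBA/2J, and its SD pools at 5.82 and 5.85 against 6.31 and 6.45. The gap was thus wider in SD, and in the Ctr libraries alone it was -0.18, with limma's adjusted p = 0.113. The rises of the 2 C57BL/6J pools were 0.97 and 0.90 and those of the 2 DBA/2J pools 1.21 and 1.38, a difference that was not tested. In liver the 2 C57BL/6J pools disagreed, at 4.53 and 3.96 in Ctr and 6.14 and 5.33 in SD, and the difference of -0.23 (SE 0.18, limma adjusted p = 0.411) changed with either of them: without the second it was 0.12, and without the first -0.57 with limma's adjusted p = 0.0244. *Impa2* was lower in C57BL/6J cortex as well, with a difference of -0.46 (SE 0.12, limma adjusted p = 0.0101). Its Ctr pools were at 2.12 and 1.84 against 2.46 and 2.22, and its SD pools at 1.66 and 1.52 against 2.09 and 2.20. In the Ctr libraries alone the value was -0.36 (limma adjusted p = 0.175), without the second C57BL/6J pool -0.35 (limma adjusted p = 0.102), and without the first DBA/2J pool -0.42 (limma adjusted p = 0.0947). *Isyna1* and *Nfat5* did not pass in cortex (0.10 and -0.0043, limma adjusted p = 0.167 and 0.951), nor did *Isyna1*, *Impa2* and *Nfat5* in liver (0.12, 0.40 and 0.20, limma adjusted p = 0.679, 0.197 and 0.0865).

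Whether lines with a large *Slc5a3* response also responded in the other members, and whether a response recurred in the other tissue, was examined over the 33 BXD/RwwJ lines in a family of 13 relations with two-sided permutation tests. The *Slc5a3* rise in cortex went with that in liver (r = 0.46, permutation p = 0.00835, adjusted p = 0.03; rho = 0.56, p = 7.5e-04, adjusted p = 0.00975; r = 0.50 without BXD56 and BXD89), and on linear CPM the adjusted p was 0.0647. In cortex it went with the rise of *Impa1* (r = 0.60, permutation p = 2.2e-04, adjusted p = 0.00286; rho = 0.45, p = 0.00888, adjusted p = 0.0385; r = 0.46 without BXD56 and BXD89). Changes of 2 genes in the same libraries share their depth and normalization. In liver the *Slc5a3* rise went with the change of *Nfat5* (r = 0.55, permutation p = 0.00113, adjusted p = 0.00734; rho = 0.46, p = 0.00716, adjusted p = 0.0385; r = 0.37 without BXD45 and BXD70). The *Impa1* changes of the tissues ran against each other by Pearson's r (-0.45, permutation p = 0.00924, adjusted p = 0.03), but the adjusted p of Spearman's rho (-0.34, p = 0.0495) was 0.161, r was -0.27 without BXD89 and BXD83, and over all 39 pools it was -0.27 with an adjusted p = 0.303.

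The other 9 relations did not pass in either measure. For *Slc5a3* they were those with *Isyna1* (r = 0.025 in cortex and -0.17 in liver), with *Impa2* (-0.0097 and -0.081), with *Nfat5* in cortex (0.22) and with *Impa1* in liver (-0.13), and between the tissues those of *Isyna1* (0.12), *Impa2* (0.20) and *Nfat5* (-0.087), with adjusted permutation p from 0.543 to 0.957. Their Spearman's rho ran from -0.15 to 0.32, with adjusted p from 0.173 to 0.906.

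The level of long transcripts moved with these changes in liver. *Slc5a3* and *Nfat5* are long themselves but were left out of the 1448 long genes used in cortex and the 1223 used in liver. In a family of 6 relations added after the data were seen, the long-transcript change in liver went with the change of *Nfat5* (r = 0.85, permutation p = 1e-05, adjusted p = 3e-05; rho = 0.75, p = 1e-05, adjusted p = 3e-05; r = 0.69 without BXD70 and BXD83) and with that of *Slc5a3* (r = 0.61, permutation p = 1.3e-04, adjusted p = 2.6e-04; rho = 0.47, p = 0.00682, adjusted p = 0.0136; r = 0.56 without the same lines). With the long-transcript change removed from both, the *Slc5a3* and *Nfat5* changes in liver had r = 0.074 (permutation p = 0.685, adjusted p = 0.685; rho = 0.077, p = 0.67, adjusted p = 0.67), but r = 0.33 without BXD50 and BXD45, so that the low value rests on those lines. In cortex the long-transcript change went with *Nfat5* (r = 0.87, permutation p = 1e-05, adjusted p = 3e-05; rho = 0.81, p = 1e-05, adjusted p = 3e-05; r = 0.70 without BXD90 and BXD98) but not detectably with *Slc5a3* (r = 0.13, permutation p = 0.388, adjusted p = 0.466; rho = 0.25, p = 0.164, adjusted p = 0.246). With the long-transcript level as a term of the fit, the *Slc5a3* rise was 1.53 in liver and 0.93 in cortex. That level was centred within each condition, so the term could hardly alter the rise. Whether the rise depends on long-transcript level was therefore not tested.

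**Figure D4:**
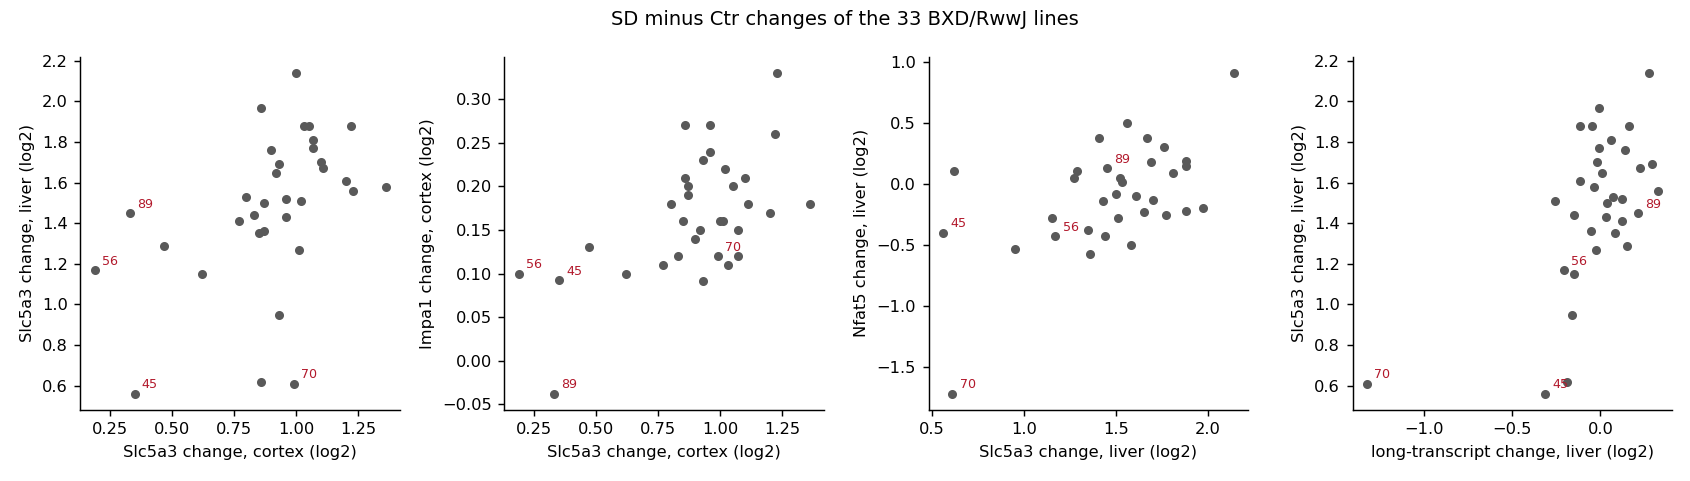
SD minus Ctr changes on the log2 scale of the 33 BXD/RwwJ lines, each a point: from left to right *Slc5a3* in liver against *Slc5a3* in cortex (r = 0.46), *Impa1* against *Slc5a3* in cortex (r = 0.60), *Nfat5* against *Slc5a3* in liver (r = 0.55), and *Slc5a3* against the long-transcript change in liver (r = 0.61). The lines 45, 56, 70 and 89 are named, since they lie at the edges of the plots.

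Genes whose SD minus Ctr changes were most like those of a member over the 33 lines were picked by the highest Pearson's r among 12899 genes in cortex and 12114 in liver with a mean of at least 1 log2 CPM. As the highest of many, these r carry no test. For *Slc5a3* in cortex they were *Hsph1*, a large heat shock protein (0.87), *Plat*, tissue plasminogen activator (0.79), *Hsp90b1*, a chaperone of the endoplasmic reticulum (0.79), *Fnbp1l*, which acts in membrane bending (0.79), and *Hspa5*, another chaperone of the endoplasmic reticulum (0.78). BXD56, with the smallest rise of *Slc5a3*, had in its Ctr pool the highest *Hsph1* and *Plat* levels of 39 as well, at 8.78 and 5.65 log2 CPM against medians of 8.23 and 4.72, and the highest *Isyna1* level (5.12). *Hspa5* was the 3rd highest there and *Hsp90b1* the 4th, while *Fnbp1l* was the 25th. For *Slc5a3* in liver they were *Hspa4l*, a large heat shock protein induced by osmotic stress (0.81), *Xpo4*, a nuclear export receptor (0.79), *Arid4b*, a chromatin protein (0.78), *Zbtb40*, a zinc finger protein (0.78), and *Tmed8* (0.77). These 5 have between 7179 and 13705 exonic bases. For *Nfat5* the nearest were *Hook3* (0.96) and *Tnrc6b* (0.95) in cortex, with 13138 and 17043 exonic bases, and *Tnrc6a* (0.92) and *Kmt2c* (0.90) in liver. For *Impa1* they were *Nus1* (0.68) and *Kdm5b* (0.65) in cortex and *Tfg* (0.69) and *Ssr1* (0.68) in liver. For *Isyna1* they were *Naa10* (0.64) and *Taldo1* (0.63) in cortex and *Ddx54* (0.73) and *Bag6* (0.72) in liver, and for *Impa2* *Snapc3* (0.59) and *Fra10ac1* (0.52) in cortex and *Dnase1l1* (0.70) and *Pcsk4* (0.66) in liver.

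The other genes of inositol metabolism were taken from lists. The counts of genes called in each list are to be read against the 68.4% of all genes that passed in cortex and the 44.2% in liver, and the list medians against -0.0097 and -0.0015. Of the other carriers, *Slc2a13*, the proton-coupled inositol transporter, rose by 0.15 in cortex (SE 0.021, limma adjusted p = 7.4e-10, higher in 37 of 39 pools) and differed by -0.14 in liver, where its mean level was 0.31 log2 CPM in Ctr (limma adjusted p = 0.484). *Slc5a11*, a second sodium-coupled carrier, was near the lower end of what was listed, at -1.08 log2 CPM in Ctr cortex and -0.90 in Ctr liver, and passed in neither tissue (0.063 and -0.34, limma adjusted p = 0.703 and 0.275). *Miox*, whose enzyme breaks myo-inositol down, was not among the genes listed in either tissue. Of 4 related phosphatases, *Bpnt1*, which removes a phosphate from inositol bisphosphates and from adenosine bisphosphate, rose in both tissues, by 0.27 in cortex (limma adjusted p = 1.5e-29, higher in all 39 pools) and by 0.14 in liver (limma adjusted p = 4.3e-09). *Inpp1*, which forms inositol monophosphate from a bisphosphate, fell by 0.063 in cortex (limma adjusted p = 0.00489) and differed by 0.014 in liver. *Impad1* (-0.013 and -0.036) and *Minpp1* (0.006 and 0.015) passed in neither tissue. The medians of these 4 were -0.0033 in cortex and 0.015 in liver.

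Of 7 genes for phosphatidylinositol synthesis and 4-kinases, 2 rose and 1 fell in each tissue, with medians of -0.0014 in cortex and 0.032 in liver. *Cdipt*, which joins myo-inositol to its lipid, rose by 0.063 in cortex (limma adjusted p = 6.7e-05) and differed by 0.017 in liver. *Cds1*, which makes the lipid partner, rose by 0.14 in cortex (limma adjusted p = 1.8e-10), and *Cds2*, of the same activity, rose by 0.067 in liver (limma adjusted p = 0.0112). The kinase gene *Pi4k2b* fell by 0.20 in cortex (limma adjusted p = 4e-04) and rose by 0.11 in liver (limma adjusted p = 0.0143).

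Of 8 organic osmolyte and tonicity-response genes, 7 were listed. In cortex 4 rose and 1 fell (median 0.13), and in liver 3 rose and 2 fell (median 0.0045). *Hspa4l* rose by 0.99 in liver (SE 0.054, limma adjusted p = 1.4e-27) and by 0.29 in cortex (SE 0.029, limma adjusted p = 1.2e-14), in all 39 pools of both tissues. *Slc38a2*, an amino acid transporter induced by hypertonicity, rose by 0.35 in cortex and 0.23 in liver (limma adjusted p = 6.6e-20 and 1.2e-06). *Sgk1*, a kinase induced by hypertonicity and by glucocorticoids, rose by 0.62 in cortex (limma adjusted p = 1e-17, higher in 38 of 39 pools) and differed by 0.0045 in liver (limma adjusted p = 0.963). *Slc6a6*, the taurine transporter and a known NFAT5 target, went the other way, with -0.33 in cortex and -0.33 in liver (limma adjusted p = 1.5e-23 and 1.3e-13), and was lower in all 39 pools of both tissues. Genes of this list thus moved in both directions.

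Of 11 inositol phosphate kinases, 6 rose and 3 fell in cortex (median 0.045), and of the 10 listed in liver 4 rose and 1 fell (median 0.037). *Ipmk*, the multikinase that makes inositol polyphosphates, rose by 0.41 in cortex (limma adjusted p = 8.6e-32) and by 0.12 in liver (limma adjusted p = 1.5e-04). *Ippk*, which makes inositol hexakisphosphate, rose by 0.31 in cortex (limma adjusted p = 1.3e-20) and 0.11 in liver (limma adjusted p = 0.00267). Of the hexakisphosphate kinases, *Ip6k2* rose by 0.55 in liver (limma adjusted p = 7.2e-12) and by 0.045 in cortex (limma adjusted p = 0.0142), and *Ip6k3*, at 0.20 log2 CPM in Ctr cortex, fell by 0.86 there (limma adjusted p = 2.3e-05).

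Of 15 genes for phospholipases C and inositol trisphosphate receptors, 5 rose and 6 fell in cortex (median 0.011), and of the 12 listed in liver 1 rose and 4 fell (median -0.11). *Plcd4* rose by 0.57 in cortex (limma adjusted p = 5.7e-22, higher in all 39 pools). *Plch1* and *Plcd3* fell there by 0.41 and 0.37 (limma adjusted p = 9.8e-17 and 2.9e-20). *Itpr3*, a receptor that releases calcium, fell by 0.39 in liver and by 0.20 in cortex (limma adjusted p = 0.00122 and 2e-05). Of the 4 calcineurin-dependent relatives of *Nfat5*, *Nfatc1* rose in both tissues (0.14 in cortex and 0.27 in liver, limma adjusted p = 8.5e-05 and 5.4e-08), *Nfatc4* fell in both (-0.14 and -0.43, limma adjusted p = 0.0164 and 0.0187), *Nfatc3* fell by 0.17 in cortex (limma adjusted p = 4.3e-09) and differed by 0.067 in liver, and *Nfatc2* passed in neither (0.051 and 0.19).

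**Figure D5:**
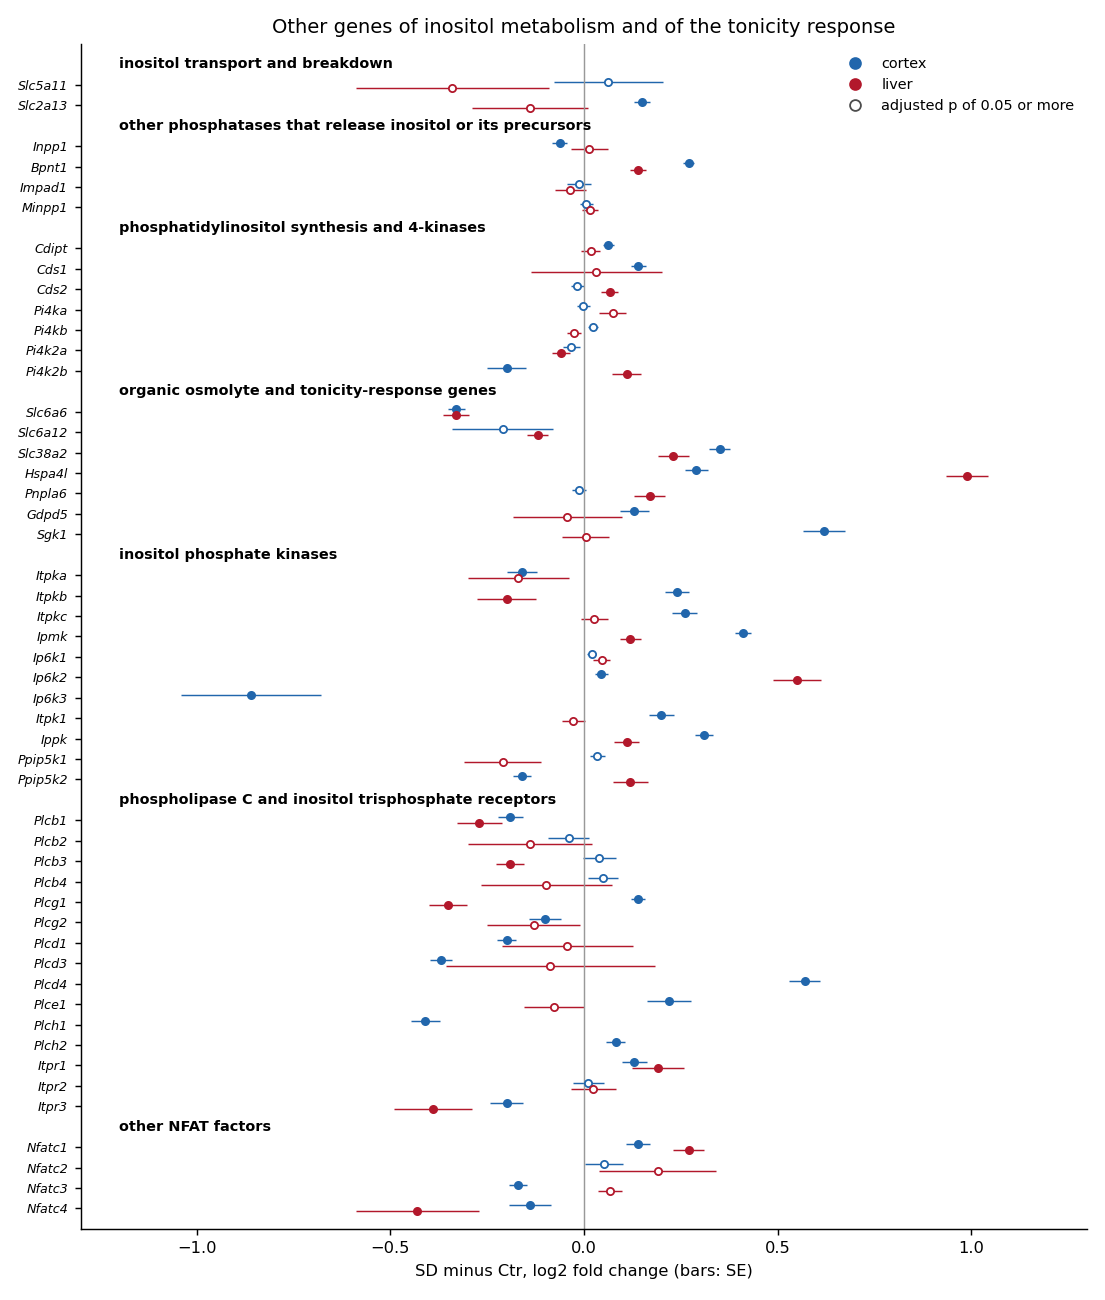
SD minus Ctr log2 fold changes (horizontal axis, bars give the SE over 39 Ctr and 39 SD pools) of the other genes of inositol metabolism and of the tonicity response, grouped by list, in cortex (blue) and liver (red). Filled points passed an adjusted p of 0.05; the largest rise was that of *Hspa4l* in liver (0.99) and the largest fall that of *Ip6k3* in cortex (-0.86).

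The 4 BXD/TyJ lines, which entered only the alternative with all 43 pools, gave a further look at the members. *Slc5a3* rose in 4 of 4 in both tissues, by 0.86 to 1.25 in cortex (median 1.03) and by 1.37 to 1.84 in liver (median 1.61), within the range of the other pools. The Ctr cortex pool of line 05 had a long-transcript level of -0.597, near that of BXD90 (-0.63). In that pool *Slc5a3* was at 4.61 and *Nfat5* at 6.78 log2 CPM. The cortex rise of 1.25 and the largest *Nfat5* change in cortex, 0.46, were those of line 05. Rises of *Slc5a3* in cortex were 0.86 to 1.11 in the lines 29, 29t and 32. *Impa1* rose in 4 of 4 in cortex (0.15 to 0.28) and was higher in 1 of 4 in liver (-0.11 to 0.092). *Isyna1* was higher in 3 of 4 in cortex and 1 of 4 in liver, *Impa2* in 1 of 4 and 3 of 4, and *Nfat5* in 3 of 4 and 2 of 4. With 4 lines, no test was run.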

How the data were processed

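RNA-seq of cerebral cortex and liver was analysed in 172 libraries, 43 per tissue and condition. The values are log2 CPM as deposited by the authors, who pooled RNA of a line, made stranded libraries, aligned reads with STAR to mm9, assigned them to RefSeq genes by htseq-count in union mode, dropped genes of low mean count and normalized with edgeR's TMM method, per the paper's methods. Cortex and liver were normalized apart. Undoing the scaling (prior count close to 1) gave whole reads, within 0.02, for 100% of values. These reads served for depth, read density and voom.

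SD and Ctr pools were compared with limma 3.58.1 in R 4.3.3 (lmFit, eBayes with a variance trend, no block), Benjamini-Hochberg adjusted over all genes listed, threshold 0.05. The study's methods name limma with voom, an alternative here. The Ctr and SD pools of a line deviated together (correlation at least 0.30 in cortex and 0.17 in liver), and share the line and, per the paper's methods, the experimental cohort, so the line as a replicate block was an alternative. Tissue differences used the change in liver minus that in cortex of a pool, parental strains an additive condition term. Relations over lines used 100000 permutations (numpy 2.4.6). Exonic lengths are from the GENCODE annotation of mm9, promoters from RefSeq. Only the SD fit without a block was run on simulated data, which held no line effect. The other fits were not simulated. All 5 members and *Mrps6* are named. Likeness took the 5 genes of highest r for *Slc5a3* and 2 for each other member. Lists of up to 4 genes are named in full, of longer ones the 4 with the largest change that passed in either tissue. Members and lists were chosen with earlier results of these data known. Pools are separate mice of a line. P-values measure the spread between pools of different genotypes.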

Additional observations from a re-analysis of the deposited data

Results flagged for a closer look

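The SD response of 3 members differed between the tissues by the test of the difference itself (limma, 39 pools, adjusted over 12695 genes, of which 57.6% passed). The change in liver minus that in cortex was 0.60 for *Slc5a3* (adjusted p = 7e-13, larger in liver in 37 of 39 pools), -0.25 for *Impa1* (adjusted p = 2.8e-14, lower in liver in 38 of 39 pools) and 0.21 for *Impa2* (adjusted p = 0.0114, higher in liver in 25 of 39 pools). For *Impa1* the change was positive in cortex (0.17) and negative in liver (-0.081), each past the threshold in its own tissue.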

How the results depend on the processing

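Of 333 values recomputed under alternatives, 302 kept their direction and their side of the threshold, or for counts stayed within 1.5 times. The SD changes of *Slc5a3*, *Impa1* and *Impa2* in cortex and of *Slc5a3* and *Impa1* in liver passed under all 13 alternatives, from 0.90 to 0.95, from 0.16 to 0.17, from -0.21 to -0.15, from 1.47 to 1.57 and from -0.081 to -0.073. With lines entered as a replicate block, which pairs the Ctr and SD pools, *Isyna1* in liver passed (0.15, adjusted p = 0.0172), and no other call on a member changed. *Isyna1* in cortex was 0.045 in the BXD/RwwJ lines alone, *Nfat5* in cortex 0.038 with the long-transcript term (passing), and *Nfat5* in liver 0.0043 without BXD56, BXD70 and BXD90 (main value -0.05). The tissue difference of *Impa2* without the pairing by line was 0.21, with an adjusted p = 0.106. The cause of these shifts was not tested.

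Between the parental strains, counts of genes past the threshold fell from 3804 in cortex to 2344 in the Ctr libraries and, with 1 parental pool left out at a time, to between 2398 and 3417. In liver they fell from 2524 to 1583 and to between 1433 and 1767. Each of these fits has fewer libraries. In the Ctr libraries alone *Slc5a3* in cortex was -0.18 and *Impa2* -0.36 (no longer passing), *Nfat5* 0.023, *Slc5a3* in liver 0.039 and *Impa1* in liver 0.24 (passing). Leaving out 1 parental pool at a time gave a range from -0.56 to -0.35 for *Impa2* in cortex (no longer passing without the second C57BL/6J pool, at -0.35, or the first DBA/2J pool, at -0.42), from -0.023 to 0.014 for *Nfat5* in cortex, from -0.57 (passing) to 0.12 for *Slc5a3* in liver and from -0.16 to 0.41 for *Isyna1* in liver.

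Among the relations over lines, the sign changed for *Slc5a3* with *Isyna1* in cortex (-0.029, median-centred) and with *Impa2* (0.013 in cortex and 0.023 in liver over 39 pools), all far from the threshold. On median-centred libraries the recurrence of *Impa2* in cortex and of *Nfat5* in liver had adjusted p = 0.051 and 0.0625. By counting error, depth limits *Impa2*, *Isyna1* and *Slc5a3* most in liver. The liver levels of *Nfat5*, *Slc5a3* and *Isyna1* also rose with the library total. A pool of mice gives no spread within a line.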
